A study of Mus musculus with 15 samples.

Results

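Genes for 7 neuropeptide precursors of the lateral and paraventricular hypothalamus were followed across diet: Hcrt, Pmch, Crh, Trh, Avp, Oxt and Pdyn. They were picked by name, and 7 of the 23589 named loci in the expression table (33603 loci in all) carried one of these names, 1 locus for each gene. Male C57BL/6 mice were fed ad libitum (AL, killed at 5 months of age), were given 60% of the AL food from 4 months of age for 1 month (DR, killed at 5 months), or had the same month of DR followed by 2 months of AL feeding (DR-AL, killed at 7 months). The libraries hold RNA pooled from 5 mice, and each of the 5 tissues (hypothalamus, hippocampus, colon, liver and epididymal fat) had 1 library a diet, 15 in all. The question was whether the peptide genes of the hypothalamus differed after 1 month of DR and whether a difference was still there after the return to AL feeding. In DR-AL, diet and age cannot be told apart, and the libraries, 1 a diet, give no replicate check of a difference between diets.

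Hcrt encodes the orexins (hypocretins), peptides of a small group of lateral hypothalamic neurons that promote wakefulness and feeding. Pmch encodes melanin-concentrating hormone (MCH), made in neighbouring but separate lateral neurons and known to promote feeding and sleep. Crh and Trh encode the releasing hormones by which parvocellular paraventricular neurons drive the adrenal and thyroid axes through the pituitary. Avp (vasopressin) and Oxt (oxytocin) are made by magnocellular neurons of the paraventricular and supraoptic nuclei, whose axons release them in the posterior pituitary, and Avp is also made in the suprachiasmatic nucleus. Pdyn encodes the dynorphins, opioid peptides that orexin neurons and vasopressin neurons both make beside their main peptide. In bulk tissue, fewer cells of a type and less RNA per cell cannot be told apart.

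Avp and Oxt are neighbouring genes that arose by duplication, and their sequences bear on how their reads can be separated. In GENCODE M21 (GRCm38), Oxt lies on the plus strand of chr2:130576173-130577054 and Avp on the minus strand of chr2:130580620-130582554, with 3565 bases between them and 3 exons each. Exon 2, which is coding throughout in both genes, is shown in transcript orientation (Avp chr2:130581056-130581257, minus strand, and Oxt chr2:130576591-130576792, plus strand). Capitals mark the longest run that is identical in both exons.
Avp: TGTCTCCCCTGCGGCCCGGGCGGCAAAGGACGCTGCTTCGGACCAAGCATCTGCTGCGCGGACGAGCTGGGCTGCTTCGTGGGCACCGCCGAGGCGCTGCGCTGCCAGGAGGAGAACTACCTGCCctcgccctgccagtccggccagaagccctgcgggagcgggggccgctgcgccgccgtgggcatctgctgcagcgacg
Oxt: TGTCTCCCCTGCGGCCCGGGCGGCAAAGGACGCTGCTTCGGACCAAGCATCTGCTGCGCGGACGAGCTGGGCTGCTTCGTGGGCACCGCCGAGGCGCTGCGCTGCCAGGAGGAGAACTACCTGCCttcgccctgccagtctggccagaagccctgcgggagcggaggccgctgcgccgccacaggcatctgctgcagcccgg
The run was 125 bases long, and 193 of the 202 positions of exon 2 (95.5%) were identical. The study's reads were 75 bases long, and 53 of the 463 windows of that length in the Oxt transcript (537 bases) were also found in the Avp transcript (577 bases). A read that falls wholly in such a window is placed by its mate alone, and how the authors' counting treated such reads is not given in the sources used here. The values of Avp and Oxt are therefore uncertain by the reads of these windows.

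The upstream sequences of Avp, Oxt and Hcrt are shown because these were the pair of neighbours that differed in response and the member with the largest fold change. RefSeq promoters (GRCm38.p6) were matched for 6 of the 7 genes, with 2 start sites for Pdyn, and Crh had no entry. The 250 bases before the start site are given 5′ to 3′ on the gene's strand, for Avp chr2:130582589-130582838 (minus), for Oxt chr2:130575919-130576168 (plus) and for Hcrt chr11:100762932-100763181 (minus). Capitals mark matches, on either strand, to 1 of 5 motifs that were searched, CACGTG (E-box), TGACGTCA (cAMP response element), TGAGTCA (AP-1), AGGTCA (nuclear receptor) and TATAAA, which do not overlap in these windows.
Avp: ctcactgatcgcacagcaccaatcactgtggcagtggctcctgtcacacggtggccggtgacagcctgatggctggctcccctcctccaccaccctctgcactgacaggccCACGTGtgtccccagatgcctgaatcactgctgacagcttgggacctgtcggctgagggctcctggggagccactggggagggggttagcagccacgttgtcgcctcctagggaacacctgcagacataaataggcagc
Oxt: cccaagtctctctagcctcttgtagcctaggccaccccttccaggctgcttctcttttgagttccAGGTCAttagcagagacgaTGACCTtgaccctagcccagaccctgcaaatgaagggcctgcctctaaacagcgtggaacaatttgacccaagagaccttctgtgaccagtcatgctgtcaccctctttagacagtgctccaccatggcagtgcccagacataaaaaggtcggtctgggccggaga
Hcrt: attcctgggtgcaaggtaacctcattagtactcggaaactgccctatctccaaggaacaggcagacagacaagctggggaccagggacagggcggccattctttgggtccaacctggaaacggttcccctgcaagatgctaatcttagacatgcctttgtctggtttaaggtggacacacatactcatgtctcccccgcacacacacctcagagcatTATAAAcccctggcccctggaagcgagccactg
The Avp window held 1 CACGTG, which 6.02% of all 32851 RefSeq promoter windows of this length hold. In the Oxt window AGGTCA was matched 2 times (14% of windows hold it), and in the Hcrt window TATAAA was matched 1 time (12.4%). Of the windows not shown, Pmch held 1 TGAGTCA (4.46%) and 1 TATAAA, Trh held 1 AGGTCA, and both Pdyn windows held none of the 5. None of the 7 windows held TGACGTCA, found in 1.55% of all. CG dinucleotides numbered 25 in the Trh window and 3 to 8 in the other 6, against a median of 6 over all windows. A match is a description of these letters and not a site.

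The other members lie apart from Avp and Oxt. In GENCODE M21 (GRCm38), Hcrt (2 exons) is at chr11:100761069-100762931 on the minus strand, Pmch (3 exons) at chr10:88091072-88092375 on the plus strand, Crh (2 exons) at chr3:19693401-19695396 on the minus strand, Trh (3 exons) at chr6:92242061-92244650 on the minus strand and Pdyn (4 exons) at chr2:129686565-129699844 on the minus strand. The Pmch gene overlaps the 3′ part of Parpbp on the other strand for 944 bases, and 435 of the 749 exon bases of Pmch (58.1%) are also exon of Parpbp.

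The libraries held 21767088 to 40500130 reads on named loci (median 26554699), and those of the hypothalamus held 29673910 (AL), 32745522 (DR) and 31204690 (DR-AL). A list of 10 transcription factors of the hypothalamus, such as Otp and Six3, summed to 289, 245 and 175 CPM (reads scaled to a total of 1000000 on named loci) in the AL, DR and DR-AL hypothalamus libraries and to 1.35 to 6.32 CPM in the hippocampus libraries, so the libraries carried the markers of the labelled regions. The 3 hypothalamus libraries differed in markers of neighbouring regions. Excitatory neurons of the telencephalon (10 genes) summed to 27.7, 81.1 and 62.7 CPM, thalamus and habenula (8 genes) to 75.2, 71.4 and 171 CPM, and pituitary (7 genes) to 17.7, 27.5 and 4.29 CPM in AL, DR and DR-AL. The AL library also stood apart in 9 markers of colon epithelium, with 24.6 CPM against 6.35 and 5.54 CPM, and every comparison with AL rests on that library. In that list 8 of 9 genes were called lower in DR and 7 of 9 in DR-AL than in AL. The shares called lower over all genes tested were 2.72% and 9.02%. Lypd8 led the list with 278, 14 and 10 reads, while Cdx2, which defines the gut lining, was at 4, 0 and 0 reads. The part of colon epithelium in the peptide gene differences was not tested. The comparison of DR-AL with DR does not use the AL library.

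All 7 peptide genes were well covered in the hypothalamus, except Crh, which had 50, 77 and 258 reads in AL, DR and DR-AL. Per transcript length, as the deposited FPKM values, the order in the AL library was Avp (975), Oxt (332), Pmch (130), Hcrt (32.4), Pdyn (29.2), Trh (22.2) and Crh (0.856). The order was not the same in the other diets. Trh (40.7 FPKM) stood above Pdyn (16.8 FPKM) in DR, and in DR-AL Hcrt (209.6 FPKM) and Pmch (205 FPKM) had changed places, though only by a small step. With 1 library a diet, no spread is available to say which neighbours in these orders differ. The 7 genes together took up 1010 CPM under AL, 874 CPM under DR and 858 CPM under DR-AL.

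**Figure D1:**
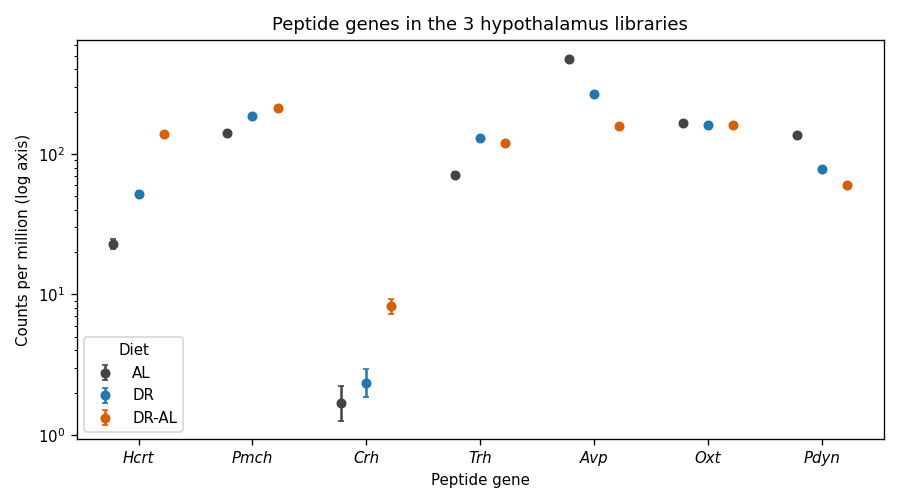
Level of the 7 peptide genes in the AL, DR and DR-AL hypothalamus libraries, in CPM on a log axis. Points are single libraries of RNA from 5 mice, bars are exact 95% counting intervals, and Hcrt moved from 22.9 to 139 CPM while Avp went from 471 to 158 CPM.

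A gene was called different between 2 libraries when the study's Z test on counts passed after Benjamini-Hochberg adjustment and the log2 fold change was at least 0.322 in size. After 1 month of DR, 5 of the 7 genes were called against AL (Hcrt, Pmch and Trh higher, Avp and Pdyn lower), where 7.05% of the 19320 genes tested were called (4.33% higher and 2.72% lower). In DR-AL against AL 6 of 7 were called (Hcrt, Pmch, Crh and Trh higher, Avp and Pdyn lower), where 15.1% of genes were called (6.06% higher and 9.02% lower). In DR-AL against DR 4 of 7 were called (Hcrt and Crh higher, Avp and Pdyn lower), where 9.62% of genes were called (2.82% higher and 6.8% lower). The Z test counts reading error only, so deeply covered genes pass it more readily. Over the 13878 genes averaging 50 counts or more the shares were 7.18%, 16.6% and 10.4%. The median log2 fold change of the 7 genes was 0.39 in DR and 0.60 in DR-AL against AL, beside 0.01 and -0.02 over those 13878 genes. Both comparisons with AL share the AL library.

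With room for error between libraries fewer calls were made. In edgeR's exact test the coefficient of variation was set to 0.124, estimated from the 3 libraries without regard to diet. This called 1 member in DR against AL (Hcrt), 4 in DR-AL against AL (Hcrt, Crh, Avp and Pdyn) and 2 in DR-AL against DR (Hcrt and Crh), where 0.849%, 2.2% and 1.3% of genes were called. Hcrt was the 1 member called in all 3 comparisons by both tests.

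**Figure D2:**
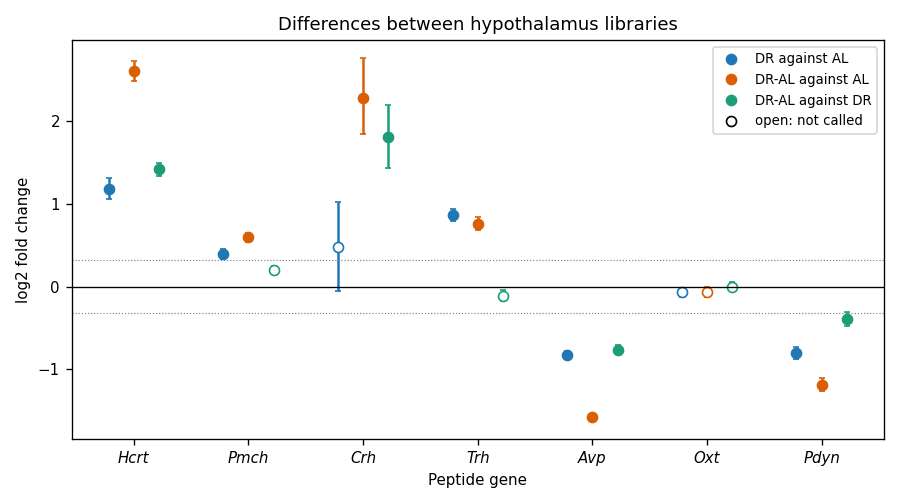
Log2 fold change of each peptide gene between hypothalamus libraries, with exact 95% counting intervals. Filled points were called by the Z test and the fold needed (dotted lines at 0.322), open points were not, and Hcrt and Crh reached 2.60 and 2.28 in DR-AL against AL while Avp reached -1.58.

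Hcrt, the orexin precursor, had 679 (AL), 1705 (DR) and 4346 (DR-AL) reads, or 22.9, 52.1 and 139 CPM. It was thus lowest under AL and highest under DR-AL, and the counting intervals of the 3 libraries did not overlap. The log2 fold change was 1.19 in DR against AL (95% counting interval 1.06 to 1.32), 2.60 in DR-AL against AL (2.49 to 2.72, a 6.08-fold difference) and 1.42 in DR-AL against DR (1.34 to 1.50). The change in DR against AL was larger in size than that of 99.4% of the genes averaging 50 counts or more, and in DR-AL against AL than that of 99.8%. Of 4 genes listed as markers of orexin neurons, Lhx9, a transcription factor of these neurons, had 69, 118 and 237 reads and was called higher in both comparisons with AL. The other 3 did not go the same way. Nptx2 had 1462, 1225 and 834 reads and was called lower in both, Igfbp3 was called lower in DR-AL with 528, 600 and 438 reads, and Rfx4 was not called with 908, 1035 and 1062 reads. All 4 are also made by other cells.

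Pmch, the MCH precursor, had 4179 (AL), 6062 (DR) and 6661 (DR-AL) reads, or 141, 185 and 213 CPM. The log2 fold change was 0.39 in DR (0.34 to 0.45) and 0.60 in DR-AL (0.54 to 0.66) against AL, both called. DR-AL against DR was 0.21 (0.16 to 0.26) and was not called. So Pmch differed in the same direction as Hcrt and by less. Cartpt, a peptide made by many MCH neurons and by other hypothalamic neurons, had 2658, 1797 and 1815 reads and was called lower in both comparisons with AL. Tacr3, a tachykinin receptor of MCH neurons, had 396, 448 and 661 reads and was called higher in DR-AL alone.

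The count of Pmch also has to be read beside its overlapping neighbour. Parpbp, a DNA repair gene on the other strand, had 1835, 2610 and 2916 reads in the AL, DR and DR-AL hypothalamus and 23 to 29 in the hippocampus libraries. Its ratio to Pmch was 0.439, 0.431 and 0.438, so the ratio hardly differed between diets while both counts did. In the table's own positions the loci of Parpbp and Nup37 overlapped that of Pmch, and no other member's locus was overlapped. Whether reads of Pmch were counted for Parpbp was not tested, and the level of Pmch is uncertain by that share.

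Crh, the releasing hormone of the adrenal axis, had 50 (AL), 77 (DR) and 258 (DR-AL) reads, or 1.68, 2.35 and 8.27 CPM. The AL and DR libraries did not differ beyond counting error, with a log2 fold change of 0.48 (-0.05 to 1.02). By real-time PCR on the RNA of individual mice, the study reported Crh and Hcrt as higher in DR than in AL. It reported a further increase of both in DR-AL. DR-AL stood above both, by 2.28 against AL (1.85 to 2.76, a 4.87-fold difference) and by 1.81 against DR (1.44 to 2.20). The level in AL was close to that of the hippocampus libraries (72, 36 and 58 reads, or 1.15 to 2.31 CPM), where interneurons express Crh. In DR-AL against AL, 5 of 8 thalamus and habenula genes were called higher, where 6.06% of all genes tested were called higher. Gbx2 had 12, 24 and 186 reads, and no gene of that list was at 0 in any hypothalamus library. Whether thalamus or habenula tissue has a part in the Crh difference was not tested.

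Trh, the releasing hormone of the thyroid axis, had 2098 (AL), 4228 (DR) and 3739 (DR-AL) reads, or 70.7, 129 and 120 CPM. The log2 fold change was 0.87 in DR (0.79 to 0.95) and 0.76 in DR-AL (0.68 to 0.84) against AL. DR and DR-AL differed by -0.11 (-0.17 to -0.04), which is under the fold needed for a call. In CPM, Trh was the only member highest in DR. The 6 genes of thyroid hormone handling went in both directions. Thrb, a thyroid hormone receptor, had 1567, 1309 and 919 reads and was called lower in both comparisons with AL. Dio3 (8, 30 and 12 reads), which inactivates thyroid hormone, and Dio2 (455, 720 and 400 reads), which activates it, were called higher in DR alone. Thra, with the most reads of the list, was not called.

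Avp, the vasopressin precursor, had 13982 (AL), 8745 (DR) and 4920 (DR-AL) reads, or 471, 267 and 158 CPM. It was highest in AL and lowest in DR-AL, the reverse of the order of Hcrt. The log2 fold change was -0.82 in DR against AL (-0.86 to -0.78), -1.58 in DR-AL against AL (-1.63 to -1.53) and -0.76 in DR-AL against DR (-0.81 to -0.71). The level in DR-AL was 2.99-fold below that in AL. Oxt, its neighbour and paralog, had 4960, 5230 and 4994 reads, or 167, 159.7 and 160.04 CPM. No comparison called Oxt, and the log2 fold changes were -0.07 (-0.12 to -0.01) in DR against AL, -0.06 (-0.12 to -0.01) in DR-AL against AL and 0.00 (-0.05 to 0.06) in DR-AL against DR. By counting error alone the intervals reach no further than -0.12, inside the fold needed for a call.

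Among the transcription factors of paraventricular and supraoptic neurons, Sim1 had 320, 472 and 438 reads and was called higher in both comparisons with AL, while Otp had 2006, 1841 and 1313 reads and was called lower in DR-AL. Arnt2 and Pou3f2 were not called, and the 4 genes summed to 458, 458 and 466 CPM. Of these sums Arnt2 made up 347, 350 and 369 CPM. The suprachiasmatic list (6 genes) summed to 45.6, 63.2 and 39.6 CPM, with Lhx1 at 285, 578 and 443 reads and Six6 at 609, 555 and 240 reads. Whether the share of suprachiasmatic cells has a part in the Avp difference was not tested.

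Pdyn, the dynorphin precursor, had 4026 (AL), 2560 (DR) and 1865 (DR-AL) reads, or 136, 78.2 and 59.8 CPM. Its order across diets was that of Avp. The log2 fold change was -0.80 in DR against AL (-0.87 to -0.72), -1.18 in DR-AL against AL (-1.26 to -1.10) and -0.39 in DR-AL against DR (-0.47 to -0.30). Pdyn is made in several hypothalamic groups besides orexin and vasopressin neurons, so its level is a sum over them.

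Ratios within a library do not depend on how libraries are scaled, but as ratios of reads they depend on the lengths of the transcripts, so only their differences between diets are read. The ratio of Hcrt to Pmch reads was 0.162 under AL, 0.281 under DR and 0.652 under DR-AL, 4.02-fold higher in the last than in the first. Avp to Oxt went from 2.82 in AL (2.73 to 2.91) to 1.67 in DR (1.62 to 1.73) and 0.985 in DR-AL (0.947 to 1.02). Pdyn to Hcrt, peptides of the same lateral neurons, went from 5.93 to 1.50 and 0.429. For both of these last pairs the ratio was highest in AL and lowest in DR-AL. Trh to Oxt was 0.423 in AL and stood higher in DR (0.808) and DR-AL (0.749), and Crh to Oxt was 0.0101, 0.0147 and 0.0517. As a share of the reads of the 7 genes, Avp made up 46.6% (AL), 30.6% (DR) and 18.4% (DR-AL), and Hcrt 2.27%, 5.96% and 16.2% (Wilson 95% intervals for Hcrt of 2.10 to 2.44%, 5.69 to 6.24% and 15.8 to 16.7%). Oxt made up 16.5%, 18.3% and 18.6%.

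**Figure D3:**
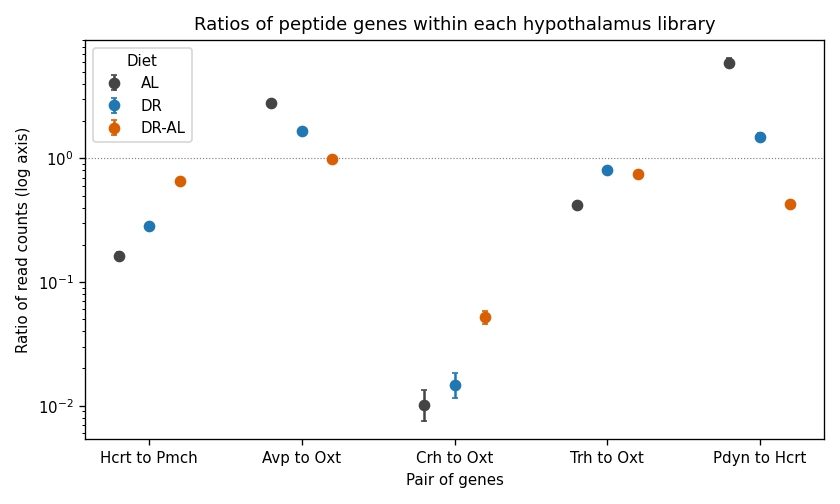
Ratio of the reads of pairs of peptide genes within the AL, DR and DR-AL hypothalamus libraries, on a log axis with exact 95% counting intervals and a dotted line at 1. Hcrt to Pmch stood higher and Avp to Oxt and Pdyn to Hcrt lower in DR and DR-AL than in AL, with Avp to Oxt at 0.985 in DR-AL.

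The 12 receptors of these peptides were followed as a fixed list. In DR against AL 0 of 12 were called higher and 1 lower (7.05% of all genes tested were called), Oprk1, the kappa opioid receptor that dynorphin binds, with 1223, 1066 and 912 reads in AL, DR and DR-AL (log2 fold change -0.34 in DR and -0.50 in DR-AL against AL). In DR-AL against AL 3 were called higher and 3 lower (15.1% of all genes tested were called). Among them was Trhr2, a TRH receptor, with 45, 66 and 157 reads and a log2 fold change of 1.72 (1.24 to 2.24) in DR-AL. Crhr1, the main CRH receptor, had 243, 327 and 387 reads (0.60) and Trhr 349, 474 and 495 reads (0.43). Lower in DR-AL were, beside Oprk1, the orexin receptor Hcrtr2 with 432, 390 and 332 reads (-0.45) and the oxytocin receptor Oxtr with 337, 345 and 277 reads (-0.35). The other orexin receptor, Hcrtr1, was not called with 312, 316 and 332 reads. The MCH receptor Mchr1 (440, 522 and 474 reads), Crhr2 (247, 267 and 219) and the vasopressin receptor Avpr1a (176, 223 and 210) were not called either. Avpr1b and Avpr2 had 1 to 6 reads a library, too few to show a difference. The median log2 fold change over the 12 was 0.04 in DR and 0.11 in DR-AL.

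Peptides related to the members and the enzymes around them were counted as well. Of 8 related ligands, binding proteins and peptidases, 3 were called higher and 0 lower in DR and 5 higher and 0 lower in DR-AL against AL. Over all genes tested, 4.33% were called higher in DR and 6.06% in DR-AL. Ucn3, a CRH family peptide, had 17, 50 and 108 reads, and Ucn2 had 0, 7 and 6 reads, while Penk, the enkephalin precursor and the deepest of the list, was not called with 3078, 4061 and 3825 reads. Ucn had 1, 2 and 16 reads and was called in DR-AL, so the calls of Ucn2 and Ucn rest on few reads. Against AL, Crhbp was called in DR alone, and Pnoc and Trhde in DR-AL alone. Of 13 genes of peptide processing and secretory granules 0 were called in DR against AL, where 7.05% of all genes tested were called. In DR-AL 1 was called higher and 1 lower, where 15.1% of all genes tested were called. This list thus did not stand out from all genes. The 2 were Vgf, with 7448 reads in AL and a log2 fold change of 0.43, and Pam, with 15808 reads and -0.45. Both were named after their values were seen. Cpe, which trims peptide precursors, had 56018, 63462 and 66378 reads and was not called.

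Genes that respond to glucocorticoids or to neuronal activity were also fixed as lists. Of 5 genes of glucocorticoid feedback 2 were called higher in both comparisons with AL, Sgk1 with 2474, 4120 and 5435 reads and Tsc22d3 with 2869, 4245 and 4031 reads, and 0 were called lower. Over all genes tested, 4.33% were called higher in DR and 6.06% in DR-AL against AL. Fkbp5, Nr3c1 and Nr3c2 were not called against AL. Their log2 fold changes were 0.22, -0.16 and 0.01 in DR and -0.26, -0.24 and -0.26 in DR-AL. Of 11 genes of activity and cAMP transcription 6 were called higher in DR, and in DR-AL 3 were called higher and 1 lower. The shares over all genes tested were 4.33% higher in DR, and 6.06% higher and 9.02% lower in DR-AL. Nr4a3 had 278, 787 and 481 reads, Fosb 157, 371 and 255 and Arc 356, 664 and 531, so these immediate early genes were highest in DR, as Trh was. Not all genes of the list went this way. Npas4 was highest in AL (24.1, 22.6 and 20.2 CPM) and was not called. In DR-AL against AL, Junb (-0.25) and Nr4a1 (-0.24) lay below AL and were not called. Egr1, with 1468, 2390 and 1836 reads, was called in DR alone.

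**Figure D4:**
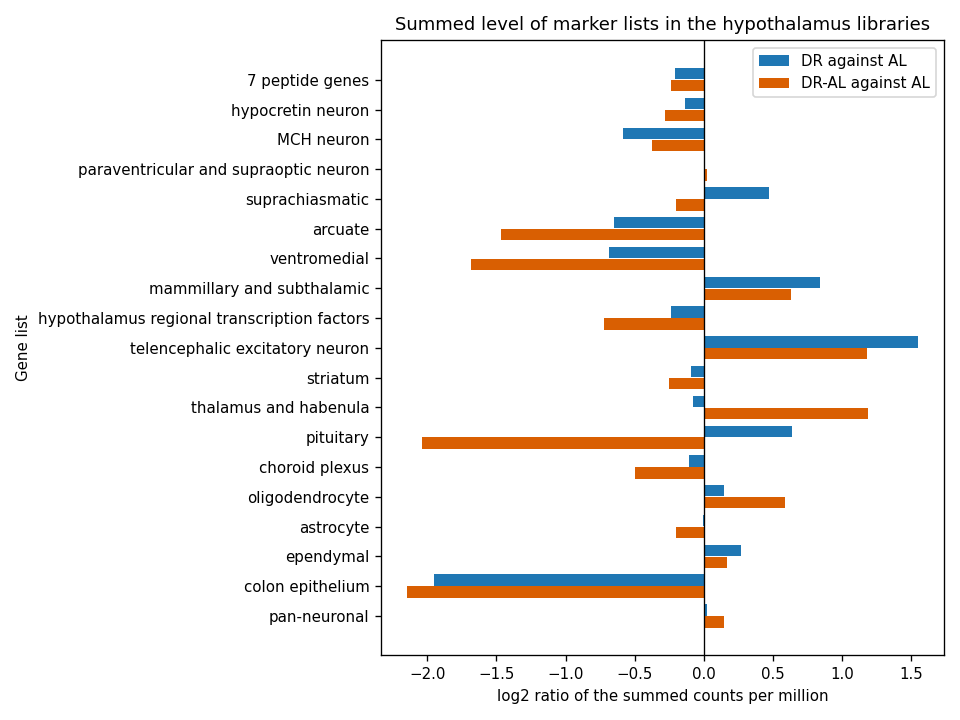
Summed level of the 7 peptide genes and of 18 marker lists in the DR and DR-AL hypothalamus libraries relative to AL, as the log2 ratio of summed CPM. The arcuate, ventromedial and hypothalamus transcription factor lists lie below 0 in both diets, furthest in DR-AL, and the telencephalic list lies above 0 in both.

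Of the marker lists of hypothalamic regions, the arcuate, ventromedial and transcription factor lists were highest in AL and lowest in DR-AL, as Avp and Pdyn were. By their sums, the other region lists did not share this order. The suprachiasmatic list (45.6, 63.2 and 39.6 CPM) and the mammillary and subthalamic list were highest in DR. The paraventricular and supraoptic list was highest in DR-AL (458, 458 and 466 CPM). Most of that sum was Arnt2 (347, 350 and 369 CPM), and the list summed to 344 to 359 CPM in the hippocampus libraries. Within the list Otp had the order of Avp (67.6, 56.2 and 42.1 CPM), while Sim1 and Pou3f2 were lowest in AL. The sum is thus no measure of these neurons alone. The arcuate list (7 genes) summed to 294, 188 and 106 CPM in AL, DR and DR-AL, with 4 of 7 genes called lower in DR and 6 of 7 in DR-AL and none higher. Pomc, the precursor of alpha-MSH, had 2980, 1052 and 708 reads and Npy 2527, 2458 and 790. Both ventromedial genes were called lower in both comparisons, Nr5a1 with 1297, 878 and 368 reads and Fezf1 with 1503, 1043 and 550, and the pair summed to 94.4, 58.7 and 29.4 CPM. No gene of either list was at 0. Of the 10 hypothalamus transcription factors, 1 was called higher and 2 lower in DR, and 1 higher and 8 lower in DR-AL. Among all genes tested, 4.33% were called higher and 2.72% lower in DR, and 6.06% higher and 9.02% lower in DR-AL. Beside the genes that were higher stood other lists. The telencephalic list had 8 of 10 genes called higher and 1 lower in DR and 6 higher and 2 lower in DR-AL, with Slc17a7 at 58, 1147 and 368 reads, though its sum stayed far under the 1883 to 2092 CPM of the hippocampus libraries. The mammillary and subthalamic list (3 genes) summed to 26.3, 47.0 and 40.8 CPM. The part of the dissected regions in the peptide gene differences was not tested.

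Pituitary genes differed in the DR-AL library too, with Cga at 253, 361 and 27 reads and Gh at 88, 224 and 18. In that list 5 of 7 genes were called higher in DR (4.33% of all genes tested) and 5 of 7 lower in DR-AL (9.02%). Pou1f1, which defines several anterior pituitary cells, was at 0 in AL and DR-AL. The part of pituitary tissue in the Avp difference was not tested. Oligodendrocyte genes (6, among them Mbp) summed to 3776, 4183 and 5657 CPM. Of these, 5 of 6 were called higher in DR-AL, where 6.06% of all genes tested were called higher. Pan-neuronal genes (8) summed to 5329, 5410 and 5896 CPM. Astrocyte genes (5) summed to 1633, 1628 and 1418 CPM, ependymal genes (4) to 43.4, 52.1 and 48.6 CPM, choroid plexus genes (6) to 72.8, 67.6 and 51.5 CPM and striatal genes (5 of 6 matched) to 178, 167 and 149 CPM.

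Scaling by the sum of the 10 hypothalamus transcription factors in place of all reads moved the median of all genes by 0.24 in DR against AL, 0.72 in DR-AL against AL and 0.49 in DR-AL against DR on the log2 scale. On that scale Avp (-0.58 in DR and -0.86 in DR-AL) and Pdyn (-0.56 and -0.46) were still called lower, by less, and Hcrt, Pmch and Trh higher in both comparisons with AL, Crh was also called in DR against AL (0.71), and Oxt turned from -0.06 to 0.66 in DR-AL against AL. In DR-AL against DR, Pdyn turned from -0.39 to 0.10 on that scale, Trh from -0.11 to 0.38, and Avp was at -0.27 and no longer called. There 5 members were called higher (Hcrt, Pmch at 0.69, Crh, Trh and Oxt at 0.49) and 0 lower, in place of 2 and 2. On that scale most genes were called in both comparisons of DR-AL. Of the 19320 genes tested, 24.1% (DR against AL), 71.7% (DR-AL against AL) and 61.2% (DR-AL against DR) were called. Of these calls 93.1%, 97.3% and 96.1% were higher. In both comparisons of DR-AL, a call of a higher member on that scale is thus common to most genes.

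The hippocampus and the peripheral tissues served as the reference. In edgeR's quasi-likelihood test with diet as a term (3 hypothalamus against 3 hippocampus libraries) 6 of 7 genes passed at an adjusted p under 0.05, all higher in the hypothalamus, where 68% of 15742 genes passed (34.6% higher in the hypothalamus). As the genes were picked as hypothalamic, this checks the regions and is not a finding. The log2 fold changes were 10.20 for Hcrt, 10.18 for Pmch, 10.06 for Avp, 9.77 for Oxt, 6.09 for Trh and 2.50 for Pdyn. Crh did not pass (0.76, edgeR adjusted p = 0.114), and passed without the AL libraries (1.26, edgeR adjusted p = 0.00752).

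In the hippocampus Pdyn, which granule cells of the dentate gyrus express, was the deepest member with 524, 335 and 407 reads (12.9, 10.7 and 16.2 CPM) in AL, DR and DR-AL. Trh had 35, 7 and 82 reads, lowest in DR and highest in DR-AL. Hcrt had 3, 1 and 0 reads, Pmch 7, 1 and 4, Avp 5, 14 and 5, and Oxt 3, 12 and 0. The 0 reads of Hcrt and Oxt in DR-AL allow up to 0.119 CPM (3 reads), for counting error only. Members called in the hippocampus numbered 3 in DR against AL, 1 in DR-AL against AL and 4 in DR-AL against DR, where 4.03%, 6.15% and 4.88% of 18804 genes were called, and the calls of Avp and Oxt rest on at most 14 reads.

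In liver, colon and fat the 7 genes gave 63 values, of which 34 were 0 and 58 were at or under 3 reads. The highest was Trh in the DR-AL fat library with 19 reads. Prm2, a gene of sperm cells, had 43, 3914 and 21083 reads in AL, DR and DR-AL fat. The DR colon library had reads of all 7 genes (23 in sum, 7 of them Avp), whereas the AL and DR-AL colon libraries had 3 and 1 in sum. Trh in fat had 3, 1 and 19 reads in AL, DR and DR-AL. Diets were not compared by a test in these tissues.

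**Figure D5:**
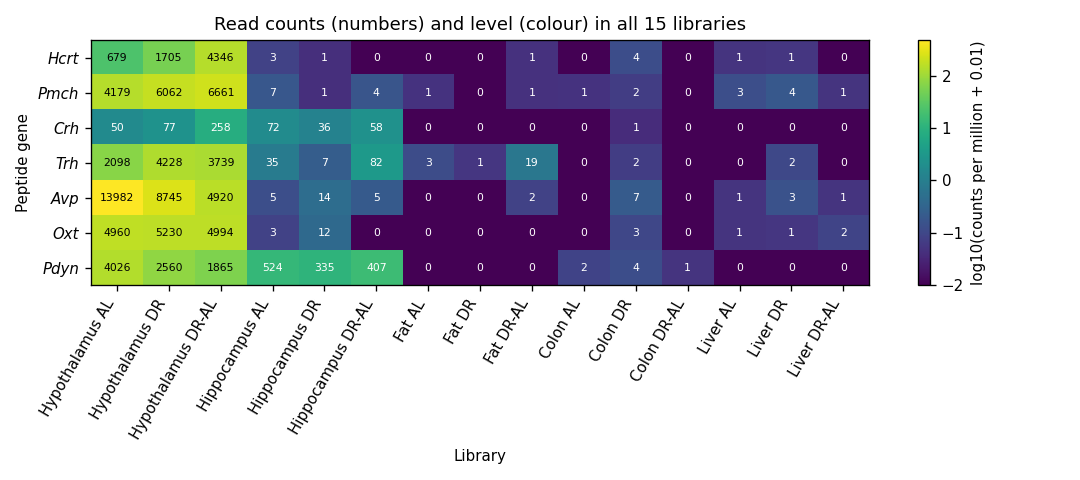
Read counts of the 7 peptide genes in all 15 libraries, as numbers, with the level as colour (log10 of CPM plus 0.01). The 3 hypothalamus libraries hold nearly all reads, Pdyn and Crh are also seen in the hippocampus, and the 9 peripheral libraries hold at most 19 reads of any member.

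The genes most like each member were picked by rule among the 13877 other genes averaging 50 counts or more in the hypothalamus. By the distance between the pair of log2 fold changes (DR and DR-AL against AL, over 3 libraries), Hcrt was closest to Chat, the acetylcholine synthesis gene, with 32, 80 and 184 reads (distance 0.17), then Ucn3 (0.21) and Cdh23 (0.23). Avp was closest to Fezf1 (0.16), Tbx3 (0.16), with 1343, 919 and 442 reads, and the alpha-globin genes Hba-a1 and Hba-a2 (0.17), so genes of the ventromedial and arcuate regions and of red blood cells stood nearest to it. Crh was closest to Sp9 (0.11, with 33, 52 and 159 reads), Prkcd (0.38) and Lhx6 (0.44, with 100, 207 and 545 reads), of which Prkcd is on the thalamus list. Trh was closest to Apold1 (0.05), Angptl1 (0.06) and Nxph4 (0.07). Pmch had many near neighbours, the closest being Cdk19 (0.0036), Ebf3 (0.0052) and Gm14204 (0.022), as its change was small. Pdyn was closest to Oacyl (0.014), Lgals4 (0.042), which is on the colon list, and Serinc2 (0.081).

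Across all 15 libraries the correlation of log2(CPM + 1) mostly reflects presence in the hypothalamus alone. The highest Pearson r for Oxt was with Lmx1b (0.999), for Pmch also with Lmx1b (0.999), for Avp with E030019B13Rik (0.999), for Trh with Barhl2 (0.999), for Pdyn with Kcnk12 (0.998) and for Hcrt with C130021I20Rik (0.991). Crh, which is less confined to the hypothalamus, was most like Grid2ip (0.996, with 95, 162 and 797 reads) and the receptor gene Trhr2 (0.982), both of which were highest in the DR-AL hypothalamus as Crh was. These libraries share mice across tissues and 3 of the 15 carry the pattern, so the values are a description.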

How the data were processed

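Per the labels and the study's methods, RNA depleted of ribosomal RNA was sequenced as stranded 75-base pairs from 5 pooled mice a library. The authors aligned the reads, removed duplicates and deposited read counts and FPKM values per locus. Their processing notes name the build mm9 and DESeq2, whereas the methods name mm10, and 0 of 7 members overlapped their GRCm38 position in the deposited table, so coordinates were taken from GENCODE M21 by symbol. The deposited counts were used as they are for all tests, and the deposited FPKM for levels between genes. CPM is reads scaled to 1000000 on named loci (unnamed loci held 0.258 to 1.39% of reads). Symbols with several loci were read at the locus with the most hypothalamus reads, and Pam, Chgb, Kiss1 and Lgals4 share a locus with another gene.

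Pairs of libraries were compared by the study's Z test (square root of the scaled count, Poisson variance, Benjamini-Hochberg adjustment over 19320 genes with at least 1 count in the 3 libraries, 0.05) with a log2 fold change of at least 0.322. Log2 fold changes carry a pseudocount of 0.5 and exact Clopper-Pearson 95% intervals, which cover counting error only. With 1 library a group no p is given for diet. The regions were compared with edgeR 4.0.16 (quasi-likelihood F-test, TMM, filterByExpr, diet as a term, R 4.3.3), with DESeq2 1.42.0 as an alternative. The Z test and the region test were tested on simulated data. Other scalings, filters, folds, units and error models were tried. The p-values of the region test measure how the region difference varied over 3 pairs of pools that also differ in diet.

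Named are all 7 members, the 12 receptors, in each pathway list the gene with the most reads and at most 4 genes called alike in both comparisons with AL, in marker lists the 2 genes with the most reads, and 3 like genes a member by each measure. Other genes were named after their values were seen, in particular Lhx9, Igfbp3, Sim1, Pou3f2, Gbx2, Pou1f1, Dio2, Dio3, Vgf, Pam, Parpbp and Prm2. The same holds for Fkbp5, Nr3c1, Nr3c2, Npas4, Junb, Nr4a1, Ucn, Crhbp, Pnoc and Trhde. The members and lists were chosen with earlier results of these data known. Results for some genes picked by this rule are not reported here.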

Additional observations from a re-analysis of the deposited data

Results flagged for a closer look

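In 3 cases the hypothalamus and hippocampus libraries went in opposite directions under the same pair of diets, both past the Z test and a log2 fold change of 0.322. These differences between regions were not tested, as each rests on 1 library a group.

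Trh in DR against AL was higher in the hypothalamus (2098 to 4228 reads, log2 fold change 0.87) and lower in the hippocampus (35 to 7 reads, -1.88), a difference of 2.74. Avp in the same comparison was lower in the hypothalamus (-0.82) and higher in the hippocampus (5 to 14 reads, 1.74), a difference of -2.56. Pdyn in DR-AL against DR was lower in the hypothalamus (-0.39) and higher in the hippocampus (335 to 407 reads, 0.59), a difference of -0.98. In Avp the hippocampus side rests on 14 reads at most. None of these hypothalamus differences was called by the exact test at the estimated dispersion. With the transcription factor list as total, Pdyn in DR-AL against DR turned to 0.10 in the hypothalamus, so its direction there depends on the scaling.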

How the results depend on the processing

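No paired analysis was possible because the labels give no replicate numbers and each diet is 1 library. The region test matched libraries by diet, and 6 members also passed without that term. Of the 7 members, 5 were called in DR against AL, and 1 with a fold of 2 or with the exact test at the estimated dispersion. In DR-AL against DR it was 4, and 2 under either of these. Under these alternatives 2.41% and 0.849% of all genes tested were called in DR against AL. In DR-AL against DR the shares were 3.07% and 1.3%. In DR-AL against AL it was 4 to 7 over the alternatives. The 4 came with a fold of 2 (4.59% of all genes tested) and with the exact test at the estimated dispersion (2.2%). The 7 came with the transcription factor list as total, where 71.7% of all genes tested were called. The region count was 6, and 6 to 7 with each diet left out in turn, where 52.3 to 68.8% of all genes tested passed in either direction. With the transcription factor list as total, Oxt turned to 0.17 for DR and 0.66 for DR-AL over AL, and in DR-AL against DR Trh turned to 0.38 and Pdyn to 0.10. Oxt also turned to a value above 0 in DR-AL against AL with FPKM (0.0104 with a pseudocount of 0.1 and 0.0103 with 1) and to -0.12 in DR-AL against DR with the pan-neuronal list as total. Ratios from FPKM, added after seeing the data, kept the direction of every change between diets, but their levels differed, with Hcrt to Pmch in DR-AL at 1.02 (0.652 by reads), Avp to Oxt in DR-AL at 1.04 (0.985) and Pdyn to Hcrt in AL at 0.900 (5.93).

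Over all genes, 1362, 2914 and 1858 were called in the comparisons of DR with AL, of DR-AL with AL and of DR-AL with DR. With a fold of 2 these were 466, 887 and 594, with the exact test 233, 667 and 366 (assumed coefficient of variation of 0.1) or 164, 426 and 252 (estimated), and with the transcription factor list 4651, 13844 and 11831. That list moved the share of calls that were higher from 61.4, 40.2 and 29.3% to 93.1, 97.3 and 96.1%. The pan-neuronal list moved the median by -0.15 and -0.12 and the shares to 16.9 and 12.7% in the comparisons of DR-AL with AL and with DR, the latter with 2985 calls. The single library of each diet limits every diet comparison.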
